A study of Arabidopsis thaliana with 6 samples.

Results

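The cysteine-rich receptor-like kinases (CRKs) of Arabidopsis are a family of cell surface kinases, here taken as 40 listed loci, 36 of them on chromosome 4. A locus was included where a probe set of the array named that gene alone, which held for 13 of the 40 loci and 13 of the 14276 genes measured. Genes without a named probe set are called not measured, although 7809 probe sets of the array had no name here. None of the 13 was named through the platform annotation. All were named through a supplementary list of the study that pairs probe sets with genes responsive to H2O2 (the H2O2 list), so that these 13 are members already known to respond to H2O2 elsewhere and not a random part of the family. The salt-treated plants were wild type Col-0 with 150 mM NaCl in the hydroponic medium for 4 d, and the control plants were wild type Col-0 in medium without NaCl, with 3 Affymetrix ATH1 arrays in each group. All plants are labelled as 28 d old, although the study places the start of treatment at that age. The labels describe the material as whole rosettes and the methods as leaves (entire shoots) from boxes of several plants, in independent biological replications.

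CRKs carry a pair of extracellular DUF26 domains with conserved cysteines, a single membrane span and a cytosolic serine/threonine kinase domain. Many members are known to be induced by pathogens, salicylic acid, ozone and other sources of reactive oxygen, and several have been tied to cell death, stomatal closure and abscisic acid (ABA) responses in leaves. Much of the family arose by tandem duplication, so that close relatives often lie side by side.

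Values are log2 expression per probe set after robust multiarray averaging (RMA), and differences are salt minus control on that scale. A gene was counted as up- or down-regulated (rose or fell) when limma gave an adjusted p under 0.05 over all 14276 genes. With 3 arrays in each group, 0.1 is the smallest two-sided p that exact permutation can reach. On the salt arrays the 25S ribosomal RNA probe set read 10.24, 9.05 and 9.48, against 7.16, 7.20 and 7.84 on the control arrays. The 5S ribosomal RNA probe set had overlapping groups, with a mean of 5.68 with salt and 6.50 in controls. For 25S, salt replicate 1 was the highest of the salt arrays. Over all probe sets its correlations with salt replicates 2 and 3 were 0.983 and 0.980, compared with 0.988 between those replicates and 0.993 to 0.997 among control arrays. The part of these differences in the results for the kinase genes was not tested. Fold changes, their calls and the differences between neighbours were computed without each array. Leaving out 1 array cannot separate the 25S difference from the treatment, since every salt array read higher than every control array. Of the leaf mesophyll markers 4 of 9 were measured, with a mean log2 level of 11.6 to 12.5 on salt arrays and 12.8 to 12.9 on control arrays. The 3 of 5 guard cell markers measured averaged 5.47 to 6.13 with salt, against 7.06 to 7.22 in controls, and the 4 of 5 root markers 6.38 to 6.69 with salt and 6.73 to 6.92 in controls. Of the measured markers, 2 of mesophyll and 3 of guard cells fell. None of the 4 root markers passed, and their groups overlapped for all but PYK10 (mean 8.46 with salt and 9.27 in controls). No marker of phloem (4 listed) or flowers (3 listed) had a named probe set. In such bulk samples fewer cells of a type and less RNA per cell cannot be told apart.

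After 4 d of salt, 8 of the 13 measured CRK genes passed the threshold, of which 5 rose and 3 fell. CRK36 and CRK11 rose most, by 4.32-fold and 3.72-fold, followed by CRK3, CRK2 and CRK10 with about 2-fold or less, whereas CRK21, CRK5 and CRK30 fell. Over all genes 23.7% passed, 11.4% up and 12.3% down. Among the 921 genes named only through the H2O2 list, to which all 13 members belong, 48.5% passed, 36.9% up and 11.6% down. The share of members that rose therefore lay near that of the H2O2 list and does not set the family apart. A change of at least 2-fold was found for 4 members upwards and 1 downwards, beside 5.32% and 2.68% of all genes and 28.4% and 4.99% of those named only through the H2O2 list. The median log2 fold change of the 13 members was 0.22, compared with -0.03 over all genes and 0.29 over the genes named only through the H2O2 list. This median is the value of CRK19 and depends on the arrays and members used, with 0.075 without salt replicate 3, 0.12 without control replicate 2, 0.33 without salt replicate 2 and 0.515 over the 10 members above the 30th percentile of mean signal.

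**Figure D1:**
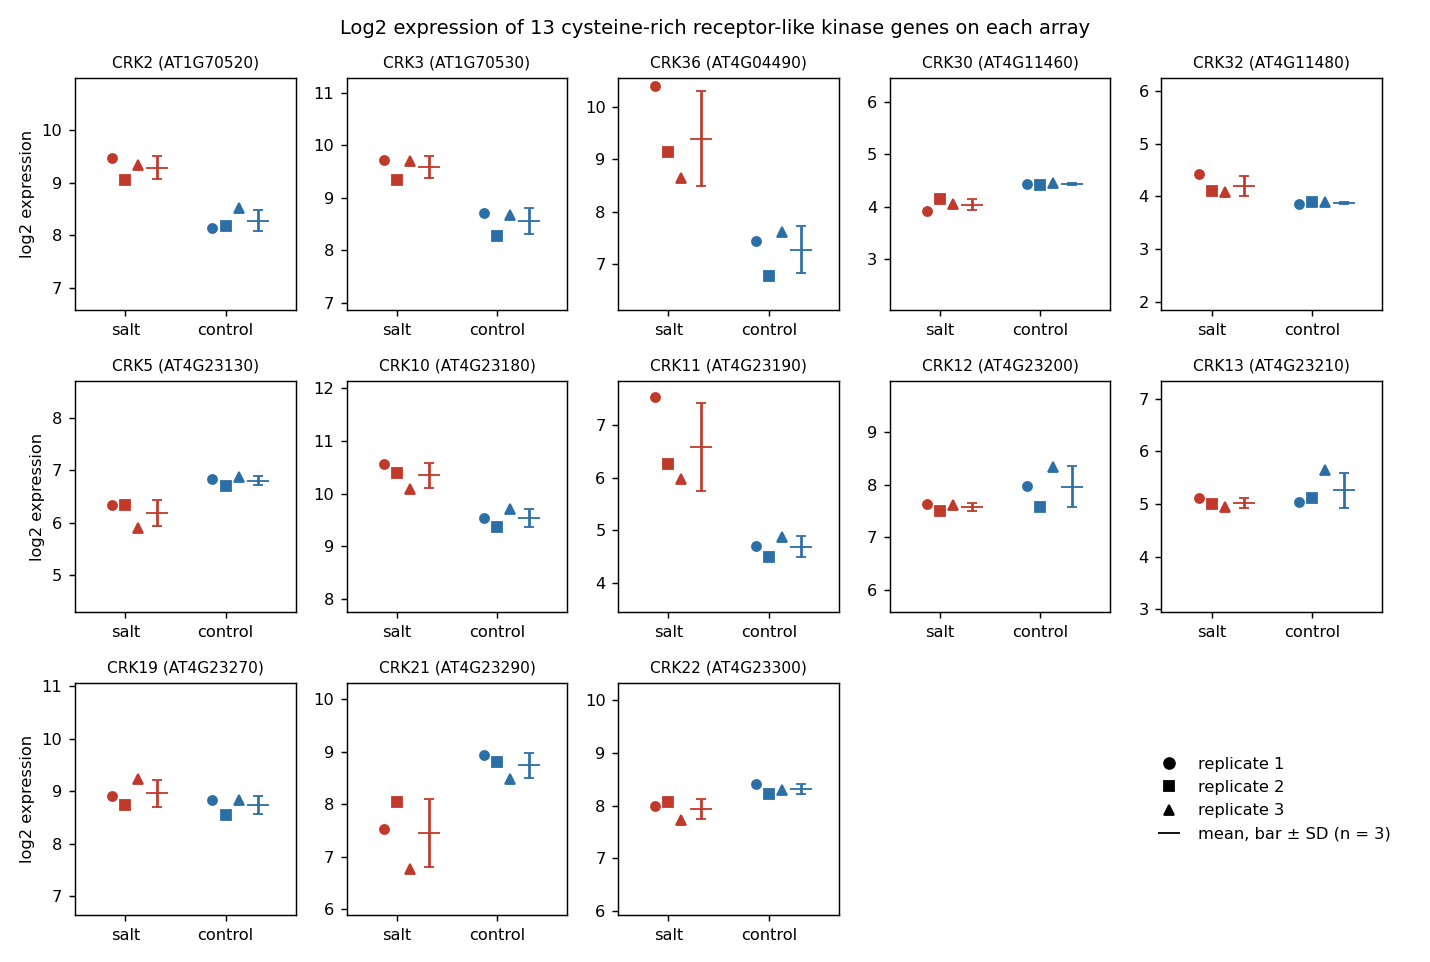
Log2 expression (y axis, each panel spanning the same number of log2 units) of the 13 measured CRK genes on each salt and control array; symbols mark the replicate, and bars give the mean ± SD (n = 3). CRK36 reached 10.39 on salt replicate 1 and stayed between 6.78 and 7.62 on the control arrays, whereas CRK12, CRK13 and CRK19 had overlapping groups.

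CRK36 (AT4G04490), for which roles in restraining ABA and osmotic stress responses and in stomatal immunity have been described, had log2 values of 10.39, 9.14 and 8.64 on the salt arrays, against 7.44, 6.78 and 7.62 on the control arrays. The groups did not overlap, and the lowest salt array lay 1.02 above the highest control array. The salt arrays were far apart, however, with a range of 1.75 against 0.84 in controls. The mean was 9.39 ± 0.90 in salt samples and 7.28 ± 0.44 in control samples (SD, n = 3 each), which gave a log2 fold change of 2.11 (SE 0.44, limma adjusted p = 0.017). Without salt replicate 1 the log2 fold change was 1.61 and it still passed, but it no longer passed when control replicate 1 or 2 was left out (adjusted p up to 0.069). Fewer genes passed in general without these arrays. Over all genes 1629 rose with every array used, but 837 and 845 without control replicate 1 and 2.

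CRK11 (AT4G23190), also called RLK3, behaved much like CRK36 from array to array. Its salt values were 7.54, 6.25 and 5.97 and its control values 4.70, 4.49 and 4.88. Salt replicate 1 was again the highest, and the gap between the groups was 1.09. The log2 fold change was 1.90 (SE 0.38, limma adjusted p = 0.014), with a value of 1.42 without salt replicate 1. Control values of CRK11 lay below the 30th percentile of mean signal over all probe sets (log2 5.45). As for CRK36, the call did not hold without control replicate 1 or 2 (highest adjusted p = 0.065).

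CRK2 (AT1G70520) and CRK3 (AT1G70530) lie next to each other on chromosome 1 and showed smaller but tighter increases. CRK2, a kinase known to phosphorylate the NADPH oxidase RBOHD and to promote salt tolerance, had 9.47, 9.04 and 9.33 with salt and 8.14, 8.18 and 8.51 in control samples. Means were 9.28 ± 0.22 in salt and 8.28 ± 0.20 in control samples (SD, n = 3 each), and CRK2 rose by 1.0 on the log2 scale (SE 0.15, limma adjusted p = 0.0052). CRK3 had 9.72, 9.34 and 9.69 with salt and 8.72, 8.27 and 8.67 in controls, and rose by 1.03 (SE 0.16, limma adjusted p = 0.0059). Neither gene had overlapping groups, and both passed whichever array was left out (highest adjusted p = 0.031 for CRK2 and 0.023 for CRK3). Both lie so close to 2-fold that quantile normalization placed them at 0.96 and 0.99.

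CRK10 (AT4G23180), or RLK4, whose promoter is known to hold W-boxes bound by WRKY factors induced by salicylic acid, had 10.56, 10.39 and 10.09 with salt, compared with 9.54, 9.36 and 9.70 in controls. It rose by 0.81 (SE 0.15, limma adjusted p = 0.0100), equal to 1.76-fold. The groups did not overlap, and the gene passed with each array left out (highest adjusted p = 0.048).

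**Figure D2:**
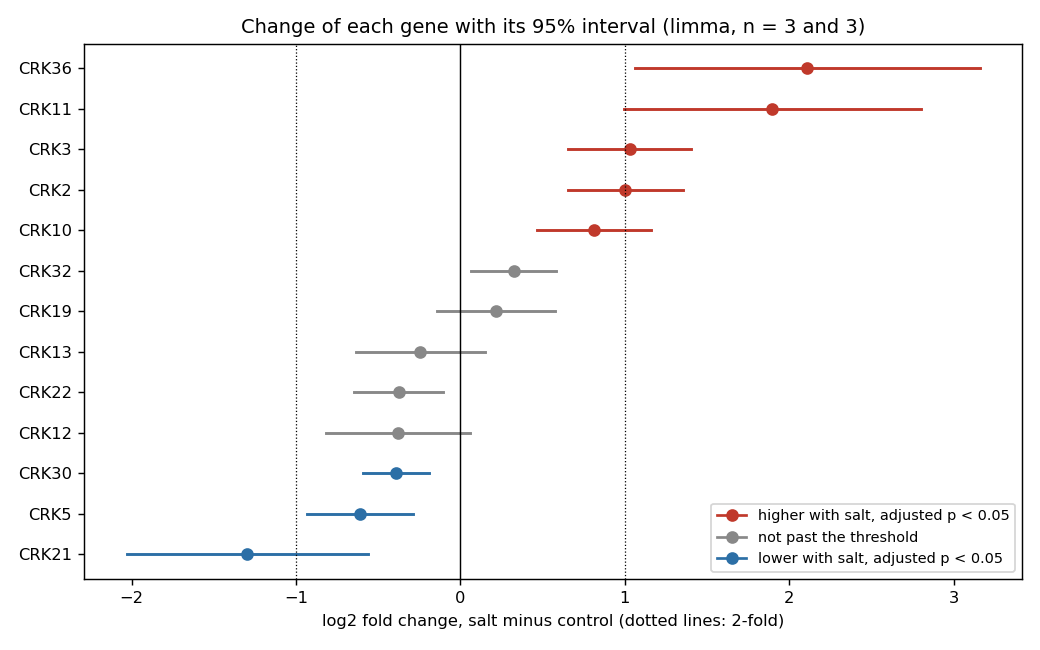
Log2 fold change (x axis, salt minus control) of each measured CRK gene, ordered by size, with its 95% interval from limma. The interval of CRK36 runs from 1.06 to 3.16 and that of CRK21 from -2.03 to -0.57, and the 5 grey genes did not pass the threshold.

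Among the genes that fell, CRK21 (AT4G23290) had the largest change. Its values were 7.53, 8.05 and 6.76 on the salt arrays and 8.94, 8.81 and 8.48 on the control arrays. Every salt array was below every control array, with salt replicate 3 lowest. The mean was 7.45 ± 0.65 in salt samples and 8.74 ± 0.24 in control samples (SD, n = 3 each), for a log2 fold change of -1.30 (SE 0.31, limma adjusted p = 0.025). Without salt replicate 3 it was -0.95, so that no member was then at least 2-fold lower.

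CRK5 (AT4G23130), whose loss is known to bring on early leaf senescence and cell death, had 6.34, 6.33 and 5.90 with salt, against 6.84, 6.70 and 6.87 in controls. It fell by 0.61 on the log2 scale (SE 0.14, limma adjusted p = 0.020), and the groups did not overlap. CRK30 (AT4G11460) had low signals throughout, with 3.93, 4.14 and 4.06 with salt and 4.44, 4.42 and 4.45 in controls. Its log2 fold change was -0.39 (SE 0.09, limma adjusted p = 0.018). The 3 falls held less often than the rises of CRK2, CRK3 and CRK10, since CRK21, CRK5 and CRK30 each failed to pass when any one of the control arrays was left out (highest adjusted p = 0.095, 0.081 and 0.081, in that order). This loss was not particular to them. Over all genes 1750 fell with every array used, but 500, 492 and 917 without control replicate 1, 2 and 3. The log2 fold change of CRK30 was then -0.39, -0.40 and -0.39.

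The other 5 measured genes did not pass. CRK22 (AT4G23300), with 8.00, 8.08 and 7.73 with salt and 8.41, 8.23 and 8.30 in controls, had non-overlapping groups and a log2 fold change of -0.38 (SE 0.11, limma adjusted p = 0.053). CRK32 (AT4G11480) was low on all arrays, with 4.42, 4.10 and 4.09 with salt and 3.86, 3.89 and 3.89 in controls, and also had non-overlapping groups (log2 fold change 0.32, SE 0.11, limma adjusted p = 0.073). The mean signals of CRK30, CRK32 and CRK13 lay below the 30th percentile. For the remaining genes the groups overlapped.

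CRK12 (AT4G23200) had 7.64, 7.50 and 7.61 with salt, compared with 7.98, 7.57 and 8.34 in controls, and here the spread was on the control side. Its log2 fold change was -0.38, with a 95% interval of -0.82 to 0.06 (limma adjusted p = 0.19). CRK13 (AT4G23210), which is known to cause cell death and pathogen resistance when expressed strongly, had 5.12, 4.99 and 4.94 with salt and 5.03, 5.11 and 5.64 in controls (log2 fold change -0.24, 95% interval -0.64 to 0.15, limma adjusted p = 0.34). CRK19 (AT4G23270), another member that triggers cell death when overexpressed, had 8.90, 8.73 and 9.24 with salt and 8.83, 8.55 and 8.84 in controls. Its log2 fold change was 0.22, with an interval of -0.14 to 0.58 (limma adjusted p = 0.35). These intervals leave room for changes of about the size seen for CRK5 in CRK12, CRK13 and CRK19 alike, although upwards in CRK19. In all, groups did not overlap for 10 of the 13 members, 6 with salt higher and 4 with salt lower, beside 42.7% of all genes (18.9% with salt higher and 23.8% with salt lower) and 62.1% of those named only through the H2O2 list (44.1% and 18%).

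The log2 fold changes of neighbouring family members did not all have the same sign. No directly adjacent, measured pair, however, held both a gene that rose and a gene that fell. From AT4G23130 to AT4G23320 the family occupies 20 of 21 successive protein-coding genes, of which 8 were measured. In this tandem block 2 genes rose, 2 fell and 4 did not pass, with a median log2 fold change of -0.31. CRK10, CRK11, CRK12 and CRK13 follow each other without another gene between them and had log2 fold changes of 0.81, 1.90, -0.38 and -0.24. Further along, CRK21 and CRK22 are direct neighbours with -1.30 and -0.38, while CRK5 opens the block with -0.61. In the block from AT4G11460 to AT4G11530, CRK30 had -0.39 and CRK32 had 0.32, with the unmeasured CRK31 between them.

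**Figure D3:**
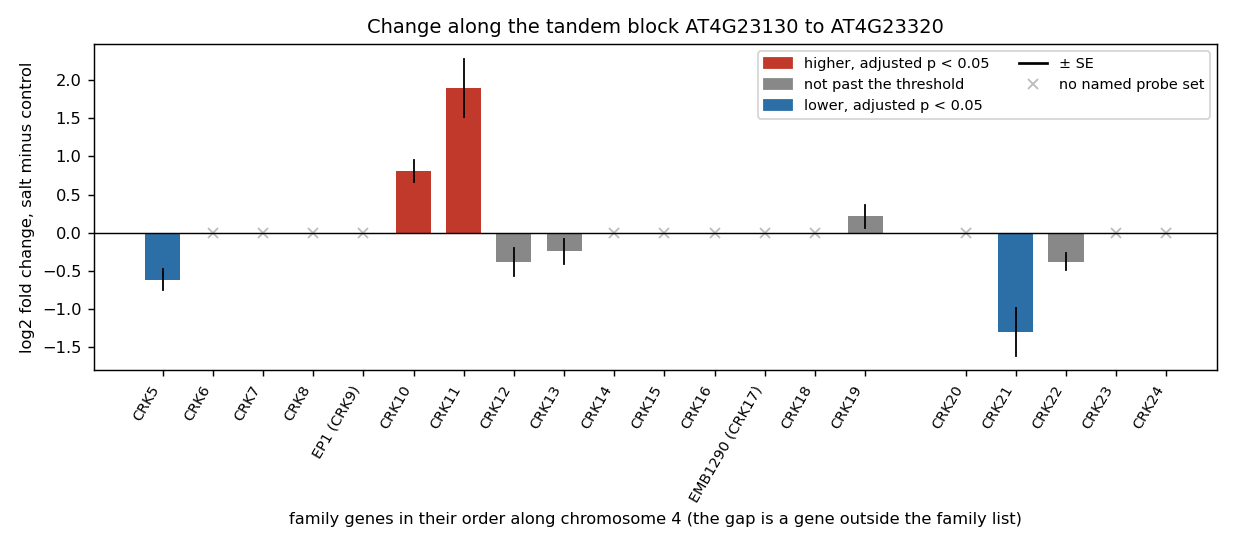
Log2 fold change (y axis, salt minus control; bars, with lines of ± SE) of the family genes in their order along chromosome 4 from CRK5 to CRK24. Of the 20 genes 8 were measured, and CRK11 with 1.90 stands directly beside CRK12 with -0.38.

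The responses of directly adjacent, measured members were compared by taking the difference between both probe sets on each array, for the 5 such pairs. CRK12 minus CRK11 was 0.10, 1.25 and 1.64 on the salt arrays and 3.28, 3.08 and 3.46 on the control arrays, and the response of CRK12 was the smaller by a log2 difference of -2.28 (95% interval -3.60 to -0.96). The response of CRK11 exceeded that of CRK10 by 1.08 (95% interval 0.06 to 2.11), but by 0.71 without salt replicate 1. CRK21 and CRK22 both had negative log2 fold changes, and that of CRK22 was the less negative by 0.92 (95% interval 0.09 to 1.75). For these 3 pairs the groups of array differences did not overlap, and the exact two-sided permutation test gave p = 0.1, the smallest possible with 3 arrays against 3 (adjusted p = 0.167 over the 5 pairs). CRK3 and CRK2 differed in response by 0.03 (95% interval -0.41 to 0.46, exact permutation p = 1), and CRK13 and CRK12 by 0.14 (95% interval -0.28 to 0.56, exact permutation p = 0.6). These intervals rest on a t distribution over 6 arrays and are not adjusted for the 5 pairs, and the permutation test cannot reach 0.05 with so few arrays. With each array left out, the differences of CRK12 and CRK11, CRK11 and CRK10, and CRK22 and CRK21 kept their sign. The small difference of CRK13 and CRK12 also kept its sign, from 0.013 to 0.258, whereas that of CRK3 and CRK2 took values from -0.07 to 0.18. All 13 probe sets carry the plain suffix that marks probes designed for a single transcript, but cross-hybridization between close relatives was not tested because probe sequences were not used here.

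Replicates of a group differed in the same direction for most members. Salt replicate 1 was the highest salt array for 9 of the 13 genes, among them all 5 that rose, and salt replicate 3 the lowest for 8. In comparison, salt replicate 1 was highest for 36.4% of all genes, 57.4% of those named only through the H2O2 list and 66.4% of all genes that rose. Salt replicate 3 was lowest for 33.7% of all genes and 48.0% of those named only through the H2O2 list. Among control arrays, replicate 3 was the highest and replicate 2 the lowest for 9 members each, beside 33.0% and 29.8% of all genes and 43.6% and 35.5% of those named only through the H2O2 list. On average over the members, salt replicate 1 lay 0.23 above and salt replicate 3 lay 0.19 below the mean of the salt arrays. These mean deviations were 0.17 and -0.152 over the genes named only through the H2O2 list, and 0.006 and -0.015 over all genes. CRK36, CRK11 and CRK21 were the members with an SD above 0.5 among salt arrays (0.90, 0.84 and 0.65). The order of the arrays differed between them, since CRK36 and CRK11 were highest on salt replicate 1 and CRK21 on salt replicate 2. The median salt SD was 0.22 over the 13 members, 0.16 over all genes and 0.27 over those named only through the H2O2 list. The 25S ribosomal RNA signal was also highest on salt replicate 1, and the leaf mesophyll markers lowest. With 3 arrays a group, such an order has no test.

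**Figure D4:**
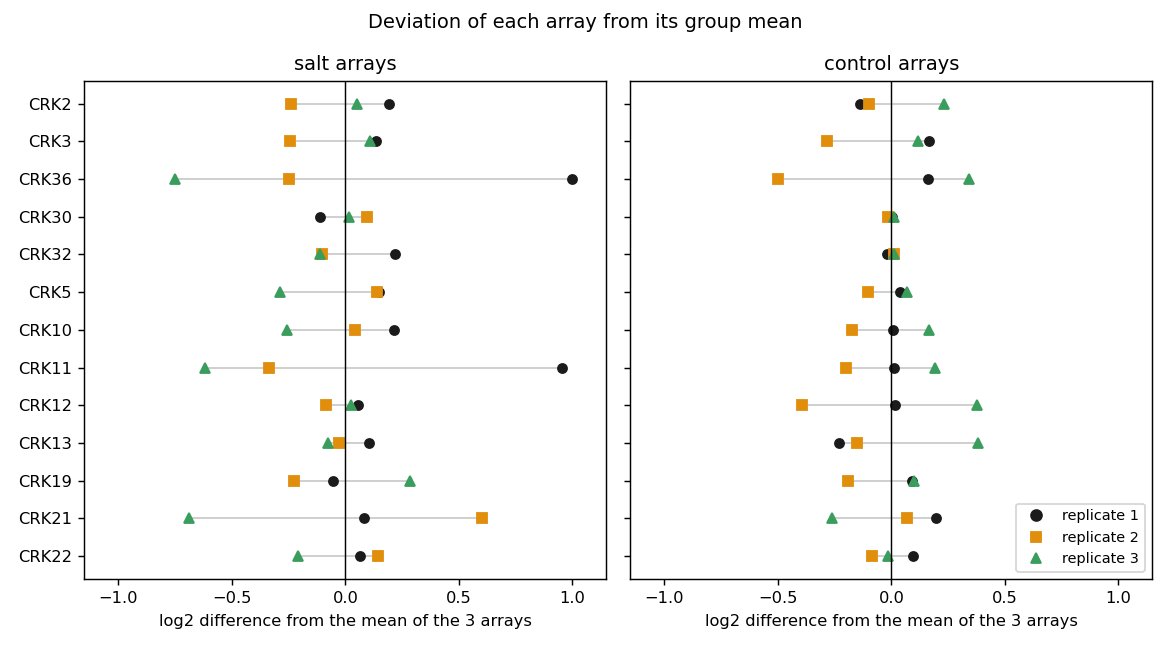
Difference of each array from the mean of its group (x axis, log2) for every measured CRK gene, with salt arrays left and control arrays right; symbols mark the replicate. On salt replicate 1, CRK36 and CRK11 lay furthest above their means, whereas on the control arrays replicate 2 was the lowest for 9 of 13 genes.

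Genes of pathways in which CRKs are known to act were counted in the same fit. Over all genes 11.4% rose and 12.3% fell. Of the genes named only through the H2O2 list 36.9% rose and 11.6% fell. The counts for the related lists are to be read beside these shares. Of 22 listed genes of cell surface immune signalling and reactive oxygen, 6 were measured, of which 3 rose and none fell (median 0.84). FRK1, a receptor kinase gene induced by flagellin perception, rose by 1.46 (SE 0.34, limma adjusted p = 0.022), with 9.22, 9.13 and 8.36 with salt and 6.91, 8.07 and 7.35 in controls. BIK1, a cytosolic kinase that activates RBOHD and is a known partner of CRK36, rose by 1.16 (SE 0.20, limma adjusted p = 0.0082). EFR, the receptor for bacterial elongation factor Tu, rose by 0.65 (SE 0.09, limma adjusted p = 0.0035). BIK1 and EFR passed with each array left out, and FRK1 did not pass without salt replicate 2 or control replicate 1 or 3 (highest adjusted p = 0.075). RBOHD and RBOHF had no named probe set here.

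Of 17 listed genes of salicylic acid defence, 8 were measured, and 4 rose while none fell (median 0.92). FMO1, needed for systemic acquired resistance, had 9.48, 7.59 and 7.82 with salt and 5.72, 5.57 and 7.10 in controls and rose by 2.17 (SE 0.58, limma adjusted p = 0.037). It was highest on salt replicate 1, as were CRK36, CRK11 and 66.4% of all genes that rose, whereas PBS3 and PR1 were highest on salt replicate 2. FMO1 did not pass without salt replicate 3 or control replicate 1 or 2 (highest adjusted p = 0.133). PBS3, of salicylic acid synthesis, rose by 1.68 (SE 0.30, limma adjusted p = 0.0098), and PR1, the usual marker of this pathway, by 1.31 (SE 0.23, limma adjusted p = 0.0095). PR1 was high on every array, with 13.36, 13.40 and 13.26 with salt, against 12.08, 11.50 and 12.50 in controls. The fourth gene that rose was CBP60g, which was picked with its value known. It had a log2 fold change of 1.05 (SE 0.23, limma adjusted p = 0.020) and did not pass without control replicate 1 or 2 (highest adjusted p = 0.078). Among the salt arrays it was highest on replicate 1. PR5, another marker of the pathway and likewise picked with its value known, lay on the other side. It had 10.92, 11.27 and 11.06 with salt and 11.96, 11.31 and 12.31 in controls, with a log2 fold change of -0.78 (SE 0.24, limma adjusted p = 0.060). The groups did not overlap, and it passed as lower without control replicate 2, under median centring and under both signal filters.

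WRKY factors bind the W-boxes found in promoters of several CRK genes. The 11 genes listed are a part of the WRKY family, chosen with earlier results of these data known. Their counts do not describe that family as a whole. Of the 11 listed genes 8 were measured. Of these 8 genes 7 rose and none fell (median 1.75). WRKY75 rose by 3.50 (SE 0.37, limma adjusted p = 0.0015), WRKY6 by 2.52 (SE 0.42, limma adjusted p = 0.0078) and WRKY40 by 2.14 (SE 0.30, limma adjusted p = 0.0044). WRKY46, chosen after its value was seen, had 0.50 (limma adjusted p = 0.29) and was the one that did not pass. WRKY75, WRKY6, WRKY40 and WRKY60 passed with each array left out, whereas 3 others, named after their values were seen, did not. WRKY33 and WRKY53 failed without control replicate 1 or 2 (highest adjusted p = 0.075 and 0.085), and WRKY22 failed without salt replicate 2 or any one control replicate (highest adjusted p = 0.136). WRKY6, with 9.79, 9.03 and 8.07, and WRKY75, with 10.49, 9.89 and 8.97, ran in the same order over the salt arrays as CRK36 and CRK11. WRKY22, WRKY33 and WRKY53 ran in that order too, whereas WRKY40, WRKY46 and WRKY60 did not. Salt replicate 1 was the highest salt array for 66.4% of all genes that rose. The share of genes with the full order of the 3 salt arrays was not computed, so this count has no matching background. The H2O2 list alone named 4 of the 6 surface signalling genes, 7 of the 8 salicylic acid genes and 5 of the 8 WRKY genes. These lists therefore share the lean of the CRK genes towards H2O2-responsive genes. Of the genes named only through the H2O2 list 36.9% rose, beside 11.4% of all genes.

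Of 10 listed DUF26 proteins without a kinase domain, 2 could be measured. CRRSP55 rose by 0.76 (SE 0.19, limma adjusted p = 0.032) and CRRSP38 had -0.33 (SE 0.30, limma adjusted p = 0.48) with overlapping groups. The call of CRRSP55 was lost on leaving out any array other than control replicate 3 (highest adjusted p = 0.102). Of 5 wall-associated kinases, another family of surface kinases, WAK3 was measured. It rose by 1.46 (SE 0.18, limma adjusted p = 0.0024), with 6.71, 6.09 and 6.25 with salt and 5.06, 4.69 and 4.92 in controls, and passed with each array left out.

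**Figure D5:**
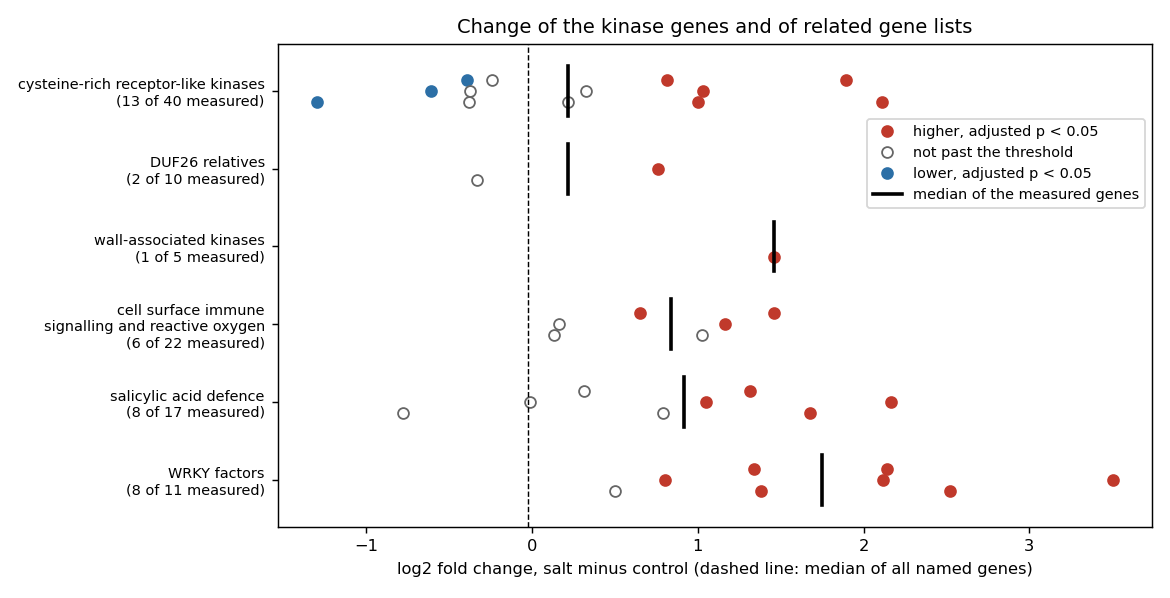
Log2 fold change (x axis, salt minus control) of each measured gene of the CRK family and of the 5 related lists; filled points passed the threshold, and black bars give the median of each list. The CRK genes span -1.30 to 2.11 on both sides of 0, with a median of 0.22. The measured genes of the WRKY list, a chosen part of that family, run from 0.50 to 3.50.

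The other 27 loci of the family were not analysed here. They comprise 12 of the 20 genes of the block from AT4G23130 to AT4G23320 (CRK6, CRK7, CRK8, EP1, CRK14, CRK15, CRK16, EMB1290, CRK18, CRK20, CRK23 and CRK24). From the block AT4G04490 to AT4G05200, 5 of 6 were missing (CRK37 to CRK40 and CRK25), and so were CRK31, CRK33 and CRK34 from the block around CRK30. All 3 genes from AT4G21230 to AT4G21410 (CRK27, CRK28 and CRK29) and the single genes CRK4, CRK41, CRK26 and CRK42 complete the list.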

How the data were processed

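Total RNA of 3 salt and 3 control samples was hybridized to ATH1 arrays. The authors summarized the arrays by RMA and deposited log2 values for each probe set. GCRMA also appears in the labels, without its role, and versions are not given in the sources used here. Apart from control probe sets the array holds 22746 probe sets. The platform annotation gave 1 gene for 13513 of them and several for 503, which stayed unnamed. The H2O2 list (1995 rows available) named a further 921, and 7809 had no name. Gene symbols and gene order came from a RefSeq gene table (assembly TAIR10.1). Each gene was represented by its probe set of highest mean.

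Salt and control were compared with limma (lmFit, eBayes) without pairing, and p-values were adjusted by Benjamini-Hochberg over 14276 genes. The fit was tested on simulated data. Members, gene lists and tests were chosen with earlier results of these data known. All measured CRK genes are described. By rule up to 3 genes of each related list are named, those that passed first and then by size of change. CBP60g, PR5 and the WRKY genes other than WRKY75, WRKY6 and WRKY40 were named with their values known. Alternatives were a block for the replicate number, leaving out each array, median centring or quantile normalization, signal filters (30th and 50th percentile of the mean), array weights, a robust eBayes fit with trend, an unmoderated test, limma's treat at 2-fold, averaging the probe sets of a gene, and annotation names alone. Testing all probe sets and leaving out each array for pairs of neighbours were added after the data were seen. Background correction was not repeated because probe intensities were not used here. Precision is limited by the number of arrays and the spread between them. Columns of the authors' fold changes in supplementary tables were not used. Versions were 4.3.3 for R, 3.58.1 for limma, 3.11.15 for Python, 2.3.3 for pandas, 2.4.6 for numpy, 1.17.1 for scipy and 3.10.9 for matplotlib.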

Additional observations from a re-analysis of the deposited data

How the results depend on the processing

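With 1 array left out, the CRK genes that rose numbered 3 to 5 and those that fell 0 to 4, the genes at least 2-fold higher 2 to 4 and at least 2-fold lower 0 to 1, and the family median 0.075 to 0.33. No member fell without control replicate 1, 2 or 3 by limma, where 3, 5 and 4 had an unadjusted p under 0.05. Over all genes, 837 to 1701 rose and 492 to 1891 fell with 1 array left out. The lowest counts came from leaving out a control array. Without control replicate 1, 2 and 3, 837, 845 and 1194 genes rose and 500, 492 and 917 fell. An unmoderated test called 0 CRK genes higher and 1 lower (6 and 4 at an unadjusted p under 0.05), and 581 and 333 genes in all. Limma's treat called 0 and 0 CRK genes (2 and 0 unadjusted), and 157 and 4 in all. Under quantile normalization 2 members were at least 2-fold higher. Both signal filters gave a family median of 0.515 over the 10 and 8 members left. Testing all probe sets called 2645 higher and 3145 lower, with 5 and 3 CRK genes as before. CRK22 passed without salt replicate 2, under quantile normalization, median centring, both filters and array weights, and CRK32 with trend and robust estimation. No CRK gene changed sign with 1 array left out, under quantile normalization, median centring or array weights. The other alternatives leave these fold changes as they are. With annotation names alone no CRK gene was measured. Deviations of same-numbered arrays from their group means had correlations of -0.124, 0.0524 and -0.139, and those of other-numbered arrays -0.103 to 0.165. With 3 arrays a group, such correlations cannot decide whether the numbers pair the arrays. With the replicate number as a block, 5 CRK genes rose and 3 fell, 1398 and 1345 genes did so in all, and CRRSP55, FMO1, WRKY22 and GDCH did not pass.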
